A study of Mus musculus with 6 samples.

Results

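The genes described here encode the Mll-type methyltransferases of histone H3 lysine 4 (Kmt2a, Kmt2b, Kmt2c and Kmt2d), their cofactor menin (Men1) and the H3K4 demethylases Kdm5a, Kdm5b, Kdm5c and Kdm1a. The 9 genes were chosen by symbol and not by a threshold on a measured value, and all 9 were found among the 26881 genes of the table. RNA of hearts was sequenced for 3 WT and 3 Cfp1-cKO samples at 2 weeks of age. Cfp1-cKO mice carried Myh6-Cre and 2 floxed Cfp1 alleles on a C57BL/6 background, so recombination was driven by a cardiomyocyte promoter and the other cells of the heart kept Cfp1. The labels call the 2 groups CXXC1 null and Wild-type. The study describes its WT controls as littermates, and in the cross it gives, of Myh6-Cre: Cfp1 flox/wt with Cfp1 flox/flox mice, every pup inherits at least 1 floxed allele. Whether the WT mice sequenced carried Cre, and whether a sample was 1 heart or a pool, is not given in the sources used here, so p-values measure the spread between these samples.

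Methylation of H3 at lysine 4 is laid down by several complexes that share the core subunits Wdr5, Rbbp5, Ash2l and Dpy30. Cfp1, encoded by Cxxc1, binds unmethylated CpG DNA and belongs to the Setd1 complexes, the main source of trimethylation at active promoters. Kmt2a and Kmt2b act with menin at promoters of a subset of genes, and Kmt2c and Kmt2d place monomethylation at enhancers. Kdm5 enzymes remove methyl groups from trimethylated and dimethylated H3K4, and Kdm1a, also called Lsd1, removes them from the dimethylated and monomethylated forms. The comparison of genotypes asks whether transcripts of these other writers and erasers of the mark differed when Cfp1 was deleted.

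Expression was given as FPKM, that is, fragments scaled to exon length in kilobases and to the total of the library. Genotypes were compared with limma on log2(FPKM + 1) over the 11017 genes whose mean reached 1 FPKM, and genes counted as called when the Benjamini-Hochberg adjusted p was under 0.05 and the log2 fold change exceeded 0.5 in either direction. On this scale fold changes of low genes are understated. Library totals worked back from the FPKM steps were between 16672652 and 22700811 fragments, and each member had between 164 and 1497 fragments per library. The relative counting error of a member in 1 library was at most 7.81%, found for Men1. The median log2 fold change of all tested genes was 0.35, and fragments of mitochondrially encoded genes made up 36.9% to 39.1% of the total in WT and 29.6% to 34.9% in Cfp1-cKO libraries. Values are therefore also given after median-of-ratios scaling, which divides each library by its median ratio to the geometric mean of each gene and brought the median of the tested genes to -0.07.

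Libraries of the 2 groups differed in their content of other tissues. All 10 lung epithelial markers were called higher in Cfp1-cKO, and their summed level was between 3333 and 5049 FPKM in Cfp1-cKO libraries against 0.0166, 2.05 and 0.0887 FPKM in WT libraries 1, 2 and 3. Sftpc, the surfactant protein C of alveolar cells, was at 0 FPKM in WT libraries 1 and 3 and at 0.33 FPKM in WT library 2. Of 6 macrophage markers 4 were called higher, with a summed level of 70.4 to 75.7 FPKM in WT and of 445 to 811 FPKM in Cfp1-cKO, of which Lyz2, also expressed in lung alveolar cells, made up 387, 548 and 771 FPKM. Of 6 endothelial markers 2, of 6 fibroblast markers 1 and of 3 mesothelial markers 2 were called higher, where 21.1% of all tested genes were. After median-of-ratios scaling 10 lung, 2 macrophage, 0 endothelial, 0 fibroblast and 1 mesothelial markers were called higher by limma, where 3.22% of all tested genes were. Of 8 cardiomyocyte markers 5 were called lower, where 1.68% of all tested genes were, and 5 after scaling, where 4.04% were. The summed level of the cardiomyocyte markers was 11500 to 19910 FPKM in WT and 8972 to 12290 FPKM in Cfp1-cKO. These levels differed between the same libraries as every genotype comparison given here, their part in those differences was not tested, and because all 3 Cfp1-cKO libraries and no WT library held lung transcripts at this level, the genotype and the lung RNA cannot be told apart. In bulk tissue, fewer cells of a type and less RNA per cell cannot be told apart either. Xist and Y-linked genes marked WT library 2 and Cfp1-cKO libraries 1 and 2 as female and the other libraries as male. The summed Y-linked genes were at 1.46 and 1.23 FPKM in these 2 female Cfp1-cKO libraries, against 0.0128 FPKM in the female WT library and 49.5 to 61.5 FPKM in males. Cxxc1, the targeted gene, was at 9.66, 12.9 and 10.03 FPKM in WT against 8.02, 9.94 and 8.74 FPKM in Cfp1-cKO libraries, and its groups overlapped. Its log2 fold change was -0.26 (limma adjusted p = 0.249), and -0.75 (limma adjusted p = 0.0485) after median-of-ratios scaling. The scaled call was lost at least with a replicate block and without WT library 1, Cfp1-cKO library 1 or Cfp1-cKO library 2.

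Promoters of 3 members are shown because Cfp1 and Kmt2a both bind CpG-rich DNA: Kmt2a and Kdm5c are the members called higher in FPKM as deposited, and Kmt2c had the smallest difference on that scale. The windows run from 250 bases before to 50 bases after the gene's start in RefSeq (GRCm38.p6), are written 5′ to 3′ on the strand of the gene, and have every CG dinucleotide in capitals. Kmt2a lies at chr9:44881240-44881539, Kmt2c at chr5:25498734-25499033, both on the minus strand, and Kdm5c at chrX:152232977-152233276 on the plus strand. By the coordinates given with its FPKM, Kdm5c starts at 152233020, so most of its window lies inside the gene by that annotation.
Kmt2a: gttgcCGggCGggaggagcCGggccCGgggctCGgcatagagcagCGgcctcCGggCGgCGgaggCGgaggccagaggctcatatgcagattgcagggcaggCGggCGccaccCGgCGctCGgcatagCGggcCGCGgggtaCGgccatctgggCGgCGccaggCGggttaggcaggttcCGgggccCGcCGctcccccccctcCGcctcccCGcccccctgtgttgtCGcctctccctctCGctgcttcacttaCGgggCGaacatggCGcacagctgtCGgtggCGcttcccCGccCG
Kmt2c: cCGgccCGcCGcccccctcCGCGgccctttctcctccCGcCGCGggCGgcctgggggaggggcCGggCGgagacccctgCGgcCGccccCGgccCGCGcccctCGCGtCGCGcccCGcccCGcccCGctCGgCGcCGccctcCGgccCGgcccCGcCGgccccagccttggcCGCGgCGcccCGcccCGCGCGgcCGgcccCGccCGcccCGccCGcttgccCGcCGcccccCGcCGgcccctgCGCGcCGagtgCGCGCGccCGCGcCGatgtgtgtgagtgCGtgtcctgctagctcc
Kdm5c: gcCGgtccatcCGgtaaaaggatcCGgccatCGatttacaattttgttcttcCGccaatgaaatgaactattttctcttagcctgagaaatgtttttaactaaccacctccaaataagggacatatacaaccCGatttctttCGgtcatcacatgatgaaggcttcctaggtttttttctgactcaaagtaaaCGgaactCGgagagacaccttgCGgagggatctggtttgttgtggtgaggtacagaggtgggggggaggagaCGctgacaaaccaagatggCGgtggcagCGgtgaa
The letters CG, which read the same on both strands, occurred 36 times in the Kmt2a window, 56 times in the Kmt2c window and 13 times in the Kdm5c window. The median over 32851 windows of this length was 7, and 6.23%, 0.195% and 37.9% of all windows held at least as many as these 3. Windows were found for 7 of the 9 members, with 29 CG in Kdm1a, 27 in Kmt2d and 17 in Kdm5b, and 11, 16 and 16 in the 3 windows of Men1.

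All 9 members were expressed in WT hearts at low to moderate level. Kdm1a had the highest mean, 5.26 ± 0.73 FPKM (SD, n = 3), and Kdm5b the lowest, 1.31 ± 0.086 FPKM (SD, n = 3). Kdm5a at 3.99 ± 0.40 FPKM (SD, n = 3) and Kdm5c at 3.77 ± 0.41 FPKM (SD, n = 3) followed Kdm1a, and their values overlapped. The 4 methyltransferases and Men1 lay between 2.16 and 2.60 FPKM and each overlapped its neighbour in the order, so their order was not resolved. Kdm1a was separate from Kdm5a, Kdm5c from Kmt2b and Kmt2a from Kdm5b. In Cfp1-cKO hearts Kdm5c stood first, at 8.75 ± 1.90 FPKM (SD, n = 3), overlapping Kdm1a at 6.83 ± 0.78 FPKM (SD, n = 3), and Kdm5b stayed last at 1.75 ± 0.29 FPKM (SD, n = 3). WT library 1 had the lowest value of all 6 libraries for 9 of 9 members, and Cfp1-cKO library 3 had the highest for 7.

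In FPKM as deposited, 2 of the 9 members, Kmt2a and Kdm5c, were called higher in Cfp1-cKO and none lower. Among all tested genes 21.1% were called higher and 1.68% lower. By unadjusted p below 0.05, 5 members were higher and 0 lower, a count for which no share of all tested genes is given here. Voom on recovered fragments called 3 members higher and 0 lower, where it called 2567 of the 11017 tested genes higher and 168 lower. All 9 log2 fold changes were above 0, with a median of 0.38 against 0.35 for all tested genes, and 5 of the 9 exceeded that median. The genotypes did not overlap for 6 members, all higher in Cfp1-cKO, and 46.4% of tested genes were separate in that direction. After median-of-ratios scaling limma called 0 members in either direction, against 3.22% of tested genes called higher and 4.04% lower. At an unadjusted p below 0.05, 1 scaled member was higher and 0 were lower. Voom with the same scaling called 0 members, where it called 358 of all tested genes higher and 508 lower. The scaled log2 fold changes had a median of -0.04 against -0.07 for all tested genes, with 3 members above 0 and 6 below.

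**Figure D1:**
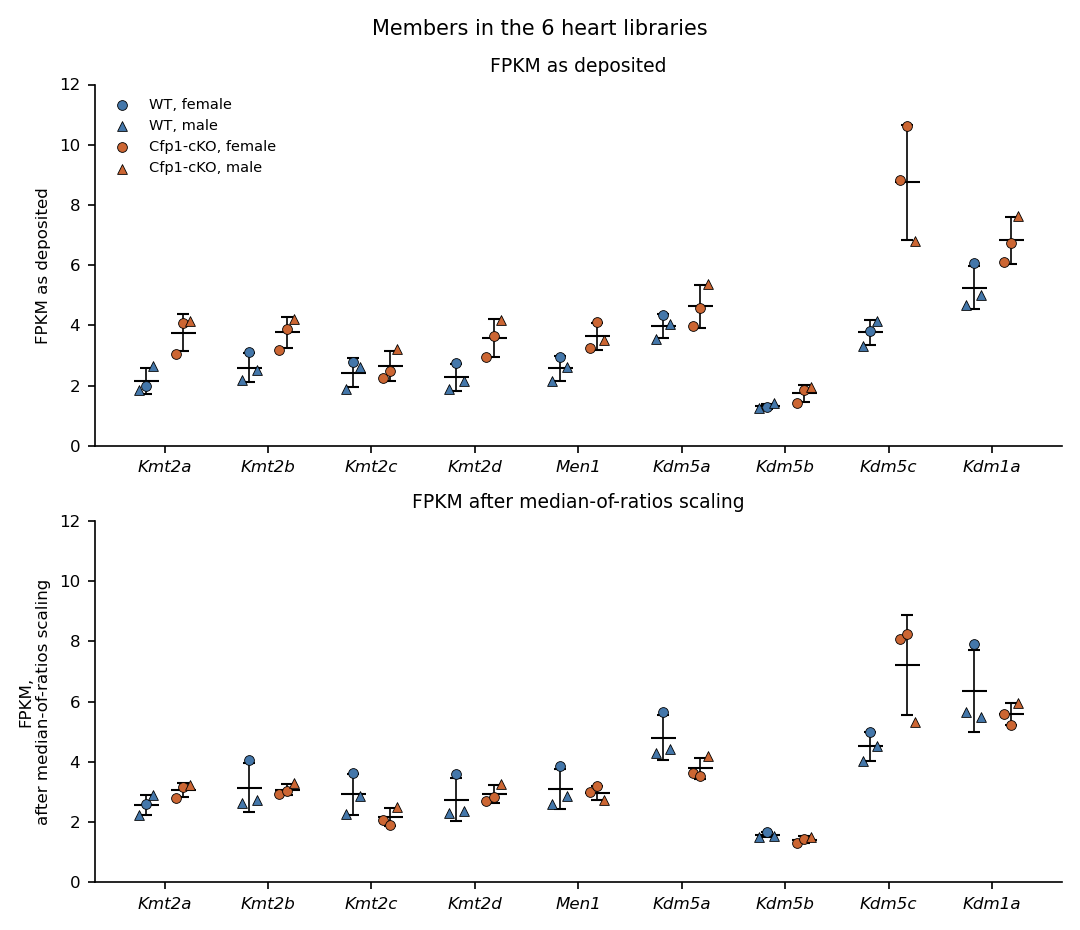
Expression of the 9 members in each library, in FPKM as deposited (top) and after median-of-ratios scaling (bottom), with 1 point per library, circles for female and triangles for male hearts as read from sex-linked transcripts, horizontal bars for means and error bars for SD over 3 libraries. Kdm5c lies between 6.82 and 10.6 FPKM in Cfp1-cKO and between 3.33 and 4.15 FPKM in WT as deposited, and in the bottom panel the genotypes of 7 of the 9 members overlap.

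Among the methyltransferases that act with menin, Kmt2a and Kmt2b were both higher in every Cfp1-cKO library than in any WT library before scaling. Kmt2a (ENSMUSG00000002028, chromosome 9 from 44803355 to 44881296 of GRCm38) encodes Mll1, the enzyme rearranged in mixed-lineage leukaemia. It was at 1.85, 2.00 and 2.64 FPKM in WT against 3.04, 4.09 and 4.14 FPKM in Cfp1-cKO hearts, a 1.74-fold ratio of means. The difference on the log2 scale was 0.59 (standard error 0.17, limma adjusted p = 0.0426). The call was lost without WT library 1 (limma adjusted p = 0.14), WT library 2 (0.0777), Cfp1-cKO library 2 (0.151) or Cfp1-cKO library 3 (0.122). After median-of-ratios scaling the values were 2.24, 2.60 and 2.89 in WT and 2.79, 3.18 and 3.23 in Cfp1-cKO, which overlapped. The scaled log2 fold change was 0.19 with a 95% interval from -0.12 to 0.50 (limma adjusted p = 0.402).

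Kmt2b (ENSMUSG00000006307, chromosome 7 from 30568858 to 30588726) encodes Mll2, the closest relative of Mll1. It was at 2.18, 3.12 and 2.51 FPKM in WT against 3.20, 3.89 and 4.22 FPKM in Cfp1-cKO hearts. The log2 fold change was 0.41 (standard error 0.17) and was not called (limma adjusted p = 0.0994). After scaling it was -0.01, with a 95% interval from -0.38 to 0.37. Men1 (ENSMUSG00000024947, chromosome 19 from 6334979 to 6340891) encodes menin, the scaffold that tethers both enzymes to chromatin. It was at 2.14, 2.96 and 2.63 FPKM in WT against 3.27, 4.13 and 3.52 FPKM in Cfp1-cKO hearts, without overlap. The difference of 0.38 (standard error 0.16) was not called (limma adjusted p = 0.109), and the scaled value was -0.04 with a 95% interval from -0.39 to 0.32. Menin transcript relative to the sum of Kmt2a and Kmt2b was 0.532, 0.578 and 0.512 in WT and 0.523, 0.517 and 0.421 in Cfp1-cKO libraries. A ratio within a library does not depend on the scaling, and these overlapped (p = 0.30, exact permutation test, two-sided, adjusted p = 0.45 over 6 ratios).

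Of the enhancer enzymes, Kmt2d was higher in every Cfp1-cKO library than in any WT library as deposited, and Kmt2c overlapped. Kmt2d (ENSMUSG00000048154, chromosome 15 from 98831669 to 98871204), the gene mutated in Kabuki syndrome, was at 1.90, 2.75 and 2.17 FPKM in WT against 2.94, 3.66 and 4.18 FPKM in Cfp1-cKO hearts. The log2 fold change was 0.49 (standard error 0.17) and was not called (limma adjusted p = 0.0708), although voom on recovered fragments called it at 0.66 (adjusted p = 0.0447). Kmt2c (ENSMUSG00000038056, chromosome 5 from 25271798 to 25498783) was at 1.88, 2.80 and 2.62 FPKM in WT against 2.26, 2.47 and 3.21 FPKM in Cfp1-cKO hearts. These values overlapped, and the log2 fold change was 0.09 with a 95% interval from -0.32 to 0.50 (limma adjusted p = 0.714). After scaling Kmt2d was at 0.08 (limma adjusted p = 0.780) and Kmt2c at -0.30 (limma adjusted p = 0.294), with a 95% interval from -0.69 to 0.08. The ratio of Kmt2c to Kmt2d was 0.988, 1.02 and 1.21 in WT and 0.768, 0.675 and 0.768 in Cfp1-cKO libraries. All 3 Cfp1-cKO ratios were below all 3 WT ratios (p = 0.10, exact permutation test, two-sided, adjusted p = 0.20 over 6 ratios), and 0.10 is the smallest p that 3 against 3 allows. Relative to every other tested gene above 0 in all libraries, taken in turn, Kmt2c was lower in Cfp1-cKO without overlap for 23.9% of 10878 genes and higher for 3.68%, and Kmt2d was higher for 24.3% and lower for 4.72%. The ratio of Kmt2a to Kmt2b was 0.849, 0.639 and 1.05 in WT and 0.951, 1.05 and 0.981 in Cfp1-cKO libraries, and overlapped (p = 0.40, exact permutation test, two-sided, adjusted p = 0.48).

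Kdm5c (ENSMUSG00000025332, chromosome X from 152233020 to 152274535) had the largest difference among the 9 members. It encodes an X-linked demethylase, escapes X inactivation and has a Y-linked counterpart in Kdm5d. It was at 3.33, 3.82 and 4.15 FPKM in WT against 8.81, 10.6 and 6.82 FPKM in Cfp1-cKO hearts, a 2.32-fold ratio of means. Every Cfp1-cKO library was above every WT library. The log2 fold change was 1.02 (standard error 0.18, limma adjusted p = 0.0110), higher than that of 93.6% of the tested genes, and the call was kept when any 1 library was left out (adjusted p from 0.0131 to 0.0493). After median-of-ratios scaling the values were 4.03, 4.98 and 4.54 in WT and 8.08, 8.26 and 5.31 in Cfp1-cKO, still without overlap, as were 12.7% of tested genes in that direction. The scaled log2 fold change of 0.56 (95% interval from 0.14 to 0.98) was not called (limma adjusted p = 0.112). In Cfp1-cKO libraries 1, 2 and 3 the lung markers summed to 4583, 3333 and 5049 FPKM and the macrophage markers to 445, 607 and 811 FPKM. In the same order the endothelial markers summed to 177.6, 225.6 and 159.6 FPKM, the fibroblast markers to 332.4, 489.0 and 331.0 FPKM, the mesothelial markers to 11.1, 22.3 and 8.26 FPKM, the erythroid markers to 965, 1664 and 197 FPKM and the proliferation genes to 3.60, 27.4 and 2.84 FPKM. Kdm5c and these last 5 sums were highest in Cfp1-cKO library 2 and lowest in library 3, the male one. The fibroblast sums of libraries 1 and 3 were nearly equal. In contrast, the lung sum was lowest in library 2 and the macrophage sum lowest in library 1. The remaining marker lists did not have the order of Kdm5c either. Their sums were 11660, 8972 and 12290 FPKM for cardiomyocytes and 334.8, 382.6 and 378.4 FPKM for smooth muscle and pericytes. B cell markers summed to 2.57, 2.46 and 1.57 FPKM, T cell markers to 1.99, 1.08 and 0.745 FPKM and Schwann markers to 1.45, 1.99 and 1.86 FPKM. The part of these cells in the Kdm5c difference was not tested.

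Sex was unequal between the groups, with 1 female WT and 2 female Cfp1-cKO libraries. In males Kdm5c was at 3.33 and 4.15 FPKM in WT against 6.82 FPKM in Cfp1-cKO, and in females it was at 3.82 FPKM in WT against 8.81 and 10.6 FPKM in Cfp1-cKO. The difference therefore had the same direction within both sexes, with a ratio of means of 1.82 in males and 2.54 in females, or 1.24 and 1.64 after scaling. With sex as a covariate the log2 fold change was 0.94 (limma adjusted p = 0.0139), or 0.44 (limma adjusted p = 0.115) after scaling. Kdm5d, read from the Y chromosome, was at 1.37, 0 and 1.47 FPKM in WT against 0.0880, 0.111 and 2.27 FPKM in Cfp1-cKO libraries, with a mean below 1 FPKM, and was not tested. Among other X-linked genes that escape inactivation, the translation factor gene Eif2s3x had a ratio of means of 1.88 in females and 1.54 in males, the H3K27 demethylase gene Kdm6a of 0.867 in females and 1.19 in males, and the RNA helicase gene Ddx3x of 0.667 in females and 1.26 in males. After scaling these ratios were 1.22 and 1.04 for Eif2s3x, 0.560 and 0.809 for Kdm6a and 0.431 and 0.846 for Ddx3x. These 3 genes were chosen after earlier results of these data were known. Of 341 tested X-linked genes 25.2% were called higher, with a median log2 fold change of 0.36, near the values of all tested genes. The nearest tested genes within 100 kb of Kdm5c, Tspyl2 and Iqsec2, had log2 fold changes of 0.21 (limma adjusted p = 0.552) and 0.20 (limma adjusted p = 0.348) and were not called.

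None of the other demethylases was called. Kdm5a (ENSMUSG00000030180, chromosome 6 from 120364124 to 120444574), first described as a partner of the retinoblastoma protein, was at 3.56, 4.34 and 4.06 FPKM in WT against 3.97, 4.56 and 5.37 FPKM in Cfp1-cKO hearts. These groups overlapped (log2 fold change 0.17, standard error 0.16, limma adjusted p = 0.415). After scaling Kdm5a was at 4.31, 5.66 and 4.44 in WT and at 3.64, 3.55 and 4.19 in Cfp1-cKO, with every Cfp1-cKO value below every WT value, as for 19.5% of tested genes, and a log2 fold change of -0.27 that was not called (limma adjusted p = 0.276). Kdm5b (ENSMUSG00000042207, chromosome 1 from 134560171 to 134635285) was at 1.25, 1.28 and 1.41 FPKM in WT against 1.41, 1.87 and 1.95 FPKM in Cfp1-cKO hearts, and the highest WT value was just above the lowest Cfp1-cKO value. Its log2 fold change was 0.24 (limma adjusted p = 0.259), or -0.09 after scaling. Kdm1a (ENSMUSG00000036940, chromosome 4 from 136550540 to 136602723) was at 4.69, 6.07 and 5.01 FPKM in WT against 6.10, 6.74 and 7.64 FPKM in Cfp1-cKO hearts. The highest WT value and the lowest Cfp1-cKO value of Kdm1a differed by less than the counting error, and the log2 fold change of 0.32 had a 95% interval from -0.04 to 0.69 (limma adjusted p = 0.145). After scaling it was -0.14, with a 95% interval from -0.52 to 0.23. The locus of Luzp1 overlaps that of Kdm1a on the opposite strand by 4241 bases at 7.27 to 13.0 FPKM, and Ccdc77 overlaps Kdm5a by 251 bases at 0.786 to 1.85 FPKM. The library kit named in the labels does not mark strand, so fragments in these overlaps cannot be assigned to 1 gene with certainty.

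**Figure D2:**
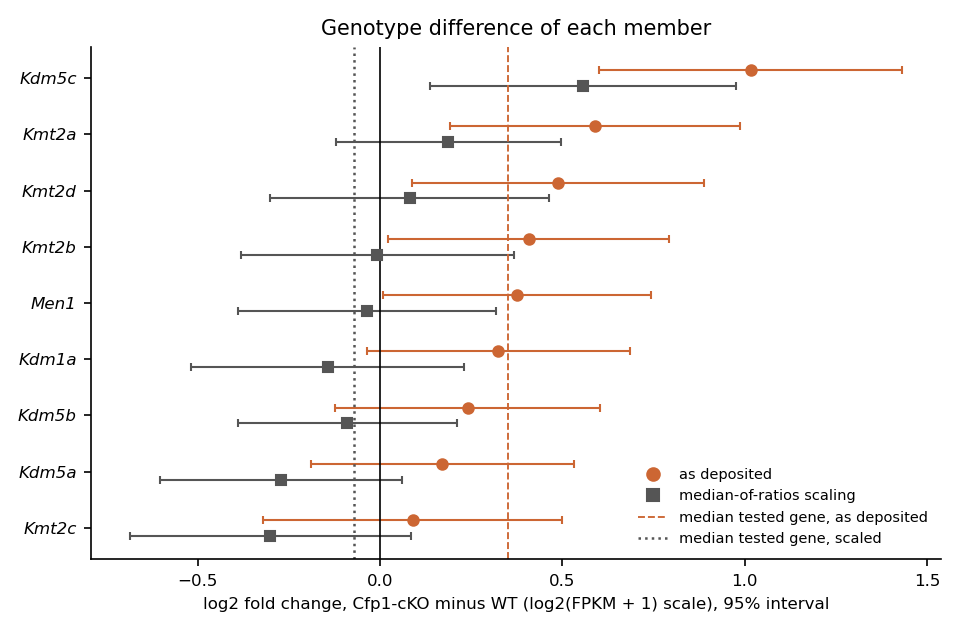
Log2 fold change of each member (Cfp1-cKO minus WT, on the log2(FPKM + 1) scale) with its 95% interval from limma, as deposited (circles) and after median-of-ratios scaling (squares), with the median of all tested genes as a dashed line at 0.35 and a dotted line at -0.07. As deposited the intervals of Kdm5c, Kmt2a, Kmt2d, Kmt2b and Men1 lie above 0, and after scaling that of Kdm5c alone does among the 9.

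Kdm5c was also set against each other member within the same library. The ratio of Kdm5c to Kdm5a was 0.936, 0.880 and 1.02 in WT and 2.22, 2.33 and 1.27 in Cfp1-cKO libraries (p = 0.10, exact permutation test, two-sided, adjusted p = 0.20 over 6 ratios). The ratio to Kmt2c was 1.78, 1.37 and 1.58 in WT and 3.91, 4.30 and 2.12 in Cfp1-cKO libraries. For 5 of the 8 other members, Kmt2c, Men1, Kdm5a, Kdm5b and Kdm1a, the ratio was higher in every Cfp1-cKO library than in any WT library, and over all 10878 other genes this held for 53.5%, with 2.03% in the opposite direction. For Kmt2a, Kmt2b and Kmt2d the ratio of Cfp1-cKO library 3, the male one, lay within the WT range, at 1.65 for Kmt2a against 1.57 to 1.92 in WT. Kdm5c made up 26.0%, 24.6% and 28.4% of the summed FPKM of the 4 demethylases in WT and 43.4%, 44.6% and 31.3% in Cfp1-cKO libraries. Relative to all other genes taken in turn, Kmt2a was higher without overlap for 30.4% and lower for 5.05%, Kmt2b for 18.9% and 7.48%, Men1 for 14.1% and 10.4%, Kdm1a for 13.0% and 13.5%, Kdm5b for 11.1% and 17.5%, and Kdm5a for 6.64% and 26.3%.

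**Figure D3:**
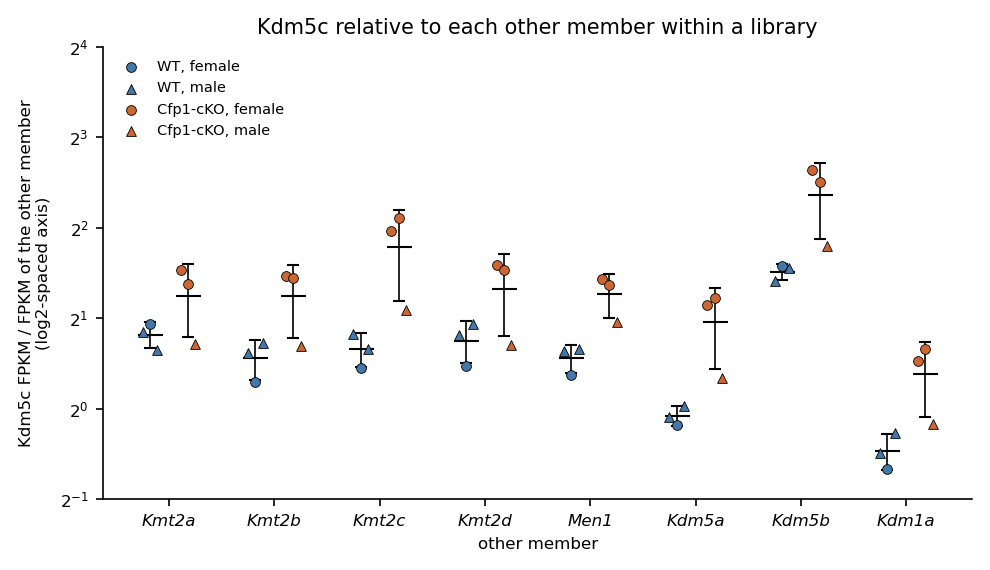
Ratio of Kdm5c FPKM to the FPKM of each other member within a library, on a log2-spaced axis, with 1 point per library, circles for female and triangles for male hearts, horizontal bars for arithmetic means and error bars for SD over 3 libraries. The 2 female Cfp1-cKO libraries lie above all WT libraries for every other member, and the male one lies within the WT range for Kmt2a, Kmt2b and Kmt2d.

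The summed FPKM of the 4 methyltransferases was 7.80, 10.7 and 9.93 in WT and 11.4, 14.1 and 15.7 in Cfp1-cKO libraries, and that of the 4 demethylases 12.8, 15.5 and 14.6 in WT and 20.3, 23.8 and 21.8 in Cfp1-cKO libraries. Both sums were higher in every Cfp1-cKO library than in any WT library as deposited, as were 46.4% of tested genes. Their ratio, which scaling leaves unchanged, was 0.608, 0.687 and 0.679 in WT and 0.564, 0.593 and 0.723 in Cfp1-cKO libraries, and the groups overlapped. With Kdm5c left out of the demethylases, a choice made after its values were seen, the ratio was 0.821, 0.912 and 0.948 in WT and 0.996, 1.07 and 1.05 in Cfp1-cKO libraries, without overlap. Of all 36 ratios between 2 members, 17 were without overlap in either direction. Set against all 10878 other genes, a member was higher without overlap for 3.68% (Kmt2c) to 53.5% (Kdm5c) of them. It was lower without overlap for 2.03% (Kdm5c) to 26.3% (Kdm5a). The planned ratio of Kdm5a to Kdm5b was 2.85, 3.39 and 2.88 in WT and 2.81, 2.44 and 2.75 in Cfp1-cKO libraries (p = 0.10, exact permutation test, two-sided, adjusted p = 0.20 over 6 ratios), and the lowest WT ratio of 2.85 lay next to the highest Cfp1-cKO ratio of 2.81. The ratio of Kdm1a to Kdm5b was 3.75, 4.74 and 3.55 in WT and 4.32, 3.60 and 3.92 in Cfp1-cKO libraries, and overlapped (p = 1.0, exact permutation test, two-sided).

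Within sexes, scaled ratios of several members lay on different sides of 1. In males, the scaled ratio of means was 1.40 for Kmt2d, 1.22 for Kmt2b and 1.07 for Kdm1a, and in females it was 0.772, 0.732 and 0.684. The test of the difference between sexes passed for 0 of 11017 genes at an adjusted p below 0.05, with limma, on either scale. At an unadjusted p below 0.05, 1388 genes passed as deposited and 1892 after scaling. Among members Kmt2d had the smallest p for this difference after scaling (limma adjusted p = 0.240). With 1 female WT and 1 male Cfp1-cKO library, each within-sex comparison rested on a single library in 1 of its groups.

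Most members are long transcripts. The exon lengths behind the FPKM ranged from 3458 bases for Men1 to 20291 bases for Kmt2c, and 8 of 9 exceeded the median of tested genes, 4003 bases. The 245 tested genes over 15 kb, which include Kmt2a, Kmt2c, Kmt2d and Kdm5b, had a median log2 fold change of 0.31, and 11.0% were called higher. The 3396 genes between 2 and 4 kb had a median of 0.37, and 22.7% were called higher. Kmt2a at 0.59 and Kmt2c at 0.09 therefore lay on either side of the median of their length class.

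The complexes in which the members act were described by 10 lists of related genes, of which 57 of 67 genes were tested. As deposited, 4 were called higher, Ash2l, Wdr82, Setd7 and Hdac1, and 0 lower. This compares with 21.1% of all tested genes called higher, and 11 list genes were higher at an unadjusted p below 0.05, with 0 lower. The share of all tested genes at that unadjusted p is not given here. Voom on recovered fragments called 7 higher, Smyd2, Setd1b, Ash2l, Hdac1, Kdm2a, Setd7 and Wdr82, and 0 lower. It called 2567 of the 11017 tested genes higher and 168 lower. The median log2 fold change of the 57 was 0.26, and -0.18 after scaling. After scaling 0 were called higher by limma, against 3.22% of all tested genes, and 0 by voom, against 358 of all tested genes. At an unadjusted p below 0.05, 1 was higher. Limma called 2 lower, Cxxc1 and Cdkn1b, against 4.04% of all tested genes. These lower calls were both lost with a replicate block and without WT library 1, Cfp1-cKO library 1 or Cfp1-cKO library 2. Without WT library 2 or Cfp1-cKO library 3 the count of lower calls was 1. It was also 1 with sex as a covariate and with size factors from the tested genes. Which calls were lost in these last settings is not given here. Without Cfp1-cKO library 2 the count of higher calls as deposited was 0, without WT library 1, Cfp1-cKO library 1 or Cfp1-cKO library 3 it was 1, and without WT library 2 it was 2. Lung and macrophage markers differed between the same 2 groups of libraries, and their part in the differences of these genes was not tested.

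Of the 4 core subunits shared by all complexes, Ash2l, which stimulates the catalytic subunit, rose from 2.61, 1.65 and 3.17 FPKM in WT to 3.98, 4.59 and 5.35 FPKM in Cfp1-cKO hearts (log2 fold change 0.72, limma adjusted p = 0.0383), and Rbbp5 was at 0.48 (limma adjusted p = 0.0603). None of the 5 tested partners of Kmt2a and Kmt2b was called, with Psip1, the chromatin tether Ledgf, at 0.47 and the host cell factor gene Hcfc1 at 0.33. None of the 3 tested partners of Kmt2c and Kmt2d was called, with Ncoa6 at 0.28 and Kdm6a at 0.16. In the Setd1 complexes Wdr82, which links Setd1 to RNA polymerase II, was at 7.76, 5.67 and 9.43 FPKM in WT against 12.5, 12.7 and 12.3 FPKM in Cfp1-cKO hearts (log2 fold change 0.67, limma adjusted p = 0.0357). Setd1b was at 1.2, 1.60 and 1.33 FPKM in WT against 1.80, 2.49 and 2.82 FPKM in Cfp1-cKO hearts and was not called (limma adjusted p = 0.0694).

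Among other SET-domain enzymes tied to H3K4, Setd7 rose from 3.76, 1.89 and 5.09 FPKM in WT to 7.25, 7.89 and 8.57 FPKM in Cfp1-cKO hearts (log2 fold change 1.02, limma adjusted p = 0.0287). Smyd2 was at 0.66 and was not called (limma adjusted p = 0.0515). Of the other H3K4 demethylases Kdm1b alone was tested, at 0.42 (limma adjusted p = 0.121). In the CoREST complex of Kdm1a, 1 of 10 genes was called, the deacetylase gene Hdac1, at 7.56, 6.25 and 6.37 FPKM in WT against 10.8, 14.3 and 12.1 FPKM in Cfp1-cKO hearts (log2 fold change 0.79, limma adjusted p = 0.0158). Rcor1, the scaffold of the complex, was at 0.40 (limma adjusted p = 0.119). Of the 6 known targets of Mll1 and menin, 3 were tested and none was called as deposited. Cdkn1b, the cell cycle inhibitor p27, was at 16.8, 19.2 and 15.6 FPKM in WT against 9.77, 13.4 and 16.7 FPKM in Cfp1-cKO hearts, which overlapped, with a log2 fold change of -0.37 (limma adjusted p = 0.18). After scaling it was -0.88 and was called lower (limma adjusted p = 0.0378). This call was lost at least with a replicate block and without WT library 1, Cfp1-cKO library 1 or Cfp1-cKO library 2. Meis1 was at 0.35 (limma adjusted p = 0.190), and Hoxa7, Hoxa9 and Hoxa10 were at no more than 0.116 FPKM in any library.

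Enzymes that act on other H3 lysines served as a comparison. None of 11 tested methyltransferases of other H3 lysines was called on either scale, with Setdb1 at 0.38 (limma adjusted p = 0.0920) and Nsd2 at 0.38 (limma adjusted p = 0.129). None of 9 demethylases of other H3 lysines was called by limma on either scale, with Kdm2a at 0.43 (limma adjusted p = 0.0705) and Kdm4a at 0.38 (limma adjusted p = 0.149). Voom on recovered fragments called Kdm2a higher as deposited. The medians were 0.20 and 0.23 as deposited and -0.23 and -0.22 after scaling.

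**Figure D4:**
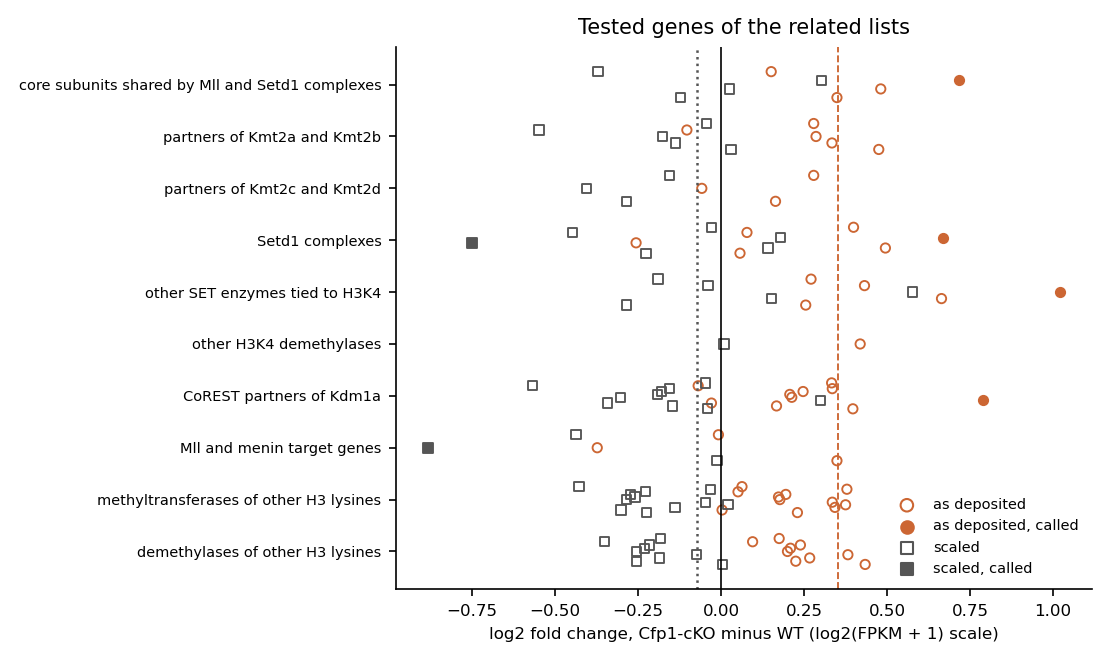
Log2 fold change (Cfp1-cKO minus WT, on the log2(FPKM + 1) scale) of the tested genes of 10 related lists, as deposited (circles) and after median-of-ratios scaling (squares), with filled symbols for called genes and the median of all tested genes as a dashed and a dotted line. The 4 filled circles are Ash2l, Wdr82, Setd7 and Hdac1, all above 0, and the 2 filled squares are Cxxc1 and Cdkn1b, below 0.

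Genes whose profile over the 6 libraries was nearest to the mean profile of the members, by the root mean square difference of centred log2(FPKM + 1), were Thumpd1, Acot7, Rbm22, Atxn7l3b and 4931406P16Rik, at 0.0271 to 0.0286. Thumpd1 was at 6.92, 8.09 and 7.84 FPKM in WT against 9.45, 11.0 and 11.7 FPKM in Cfp1-cKO hearts. Kdm5c had no such close neighbour, and its nearest gene, Ggta1, named after its values were seen, lay at 0.0631, whereas the nearest genes of the other 8 members lay at 0.0162 to 0.0293. This distance is not divided by the spread of a profile, which was widest for Kdm5c among the members. Within 100 kb of the members 31 other genes were tested, of which 5 were called higher as deposited, against 21.1% of all tested genes, namely Arf3 and Tuba1a near Kmt2d and Atg2a, Map4k2 and Cdc42bpg near Men1. Of these 31 genes 2 were called higher after scaling, Arf3 and Cdc42bpg, and 2 lower, Atp5l near Kmt2a and Pygm near Men1, against 3.22% and 4.04% of all tested genes. These neighbours were chosen for naming after their values were seen.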

How the data were processed

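RNA-seq of 3 WT and 3 Cfp1-cKO hearts was deposited by the authors as FPKM per gene. The paper names TopHat, Bowtie2 and DESeq and gives a chicken genome address, whereas the processing notes of the submitters list Bowtie2 2.2.3, DESeq2, HTSeq 0.6.0 and HISAT2 2.1.0 with the build GRCm38, and the coordinates in the table are those of mouse. FPKM steps were whole fragments within 0.02 for nearly all genes, with the exon length of GENCODE release M21 or another length, and gave the library totals. Replicates differed by more than sampling noise, and each was counted once.

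Genotypes were compared with limma 3.58.1 (R 4.3.3) with a variance trend on log2(FPKM + 1) for genes averaging 1 FPKM or more. Members are counted beside the share of all tested genes called. Median-of-ratios size factors came from genes above 0 in all libraries. The 6 planned ratios were compared with a two-sided exact permutation test in scipy 1.17.1, on the log2 scale. The 9 members and all lists were chosen with earlier results of these data known. Named genes were the members, Cxxc1, the called genes and the 2 largest changes of each list, the 5 genes nearest to the members' mean profile, sex genes and marker genes. Overlapping or neighbouring genes, other X-linked escape genes and Ggta1 lie outside this rule and were chosen after values were seen. The procedure was tested on simulated fragments, with equal expected gene shares in both groups apart from a set of changed genes. The simulation held no shift of most genes and no lung RNA in 1 group alone, so it cannot show how calls behave under these. Alternatives were the scaling, the pseudocount, the filter, voom, library weights, a replicate block, sex and leaving out each library. Same-numbered libraries were checked for shared deviations from their group means over the tested genes. The extraction text in the labels describes retinas, although the samples are labelled heart.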

Additional observations from a re-analysis of the deposited data

How the results depend on the processing

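As deposited, Kmt2a and Kdm5c were called higher. With median-of-ratios or upper-quartile scaling 0 members were called and the higher and lower counts over all genes were 355 and 445, or 472 and 296, with 0 higher list genes in both and 2 lower ones in the former. Median-of-ratios scaling turned Kmt2b to -0.007, Kmt2c to -0.30, Men1 to -0.035, Kdm5a to -0.27, Kdm5b to -0.089 and Kdm1a to -0.14, and upper-quartile scaling turned Kmt2c to -0.16 and Kdm5a to -0.12. Without mitochondrial and haemoglobin genes Kmt2c was at -0.007, and 1 member, 1 list gene and 1269 genes were called higher. Without a filter 1 member, 1 list gene and 1518 genes were called higher and 91 lower, and with a filter of 5 FPKM, which kept Kdm5c and Kdm1a, 1 member and 1027 genes were called higher. Voom called 3 members, 7 list genes and 2567 genes higher and 168 lower. Library weights called 5 members, 17 list genes and 4027 genes higher and 372 lower. The causes were not tested.

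Same-numbered libraries had correlations of deviations of 0.11, 0.04 and 0.10 over tested genes, not all above 0.1, so numbers were not taken as pairs. Each library correlated best with its own number as deposited, a hint from the data and not from the design. With a replicate block, 1 member, Kdm5c, and 1597 genes were called higher as deposited and 152 lower, and Kmt2a had an adjusted p of 0.0505. After scaling, the replicate block gave 254 lower genes and 0 lower list genes.

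Leaving out 1 library gave 1 to 2 called members, 0 to 5 higher list genes, and 457 to 2614 higher and 45 to 201 lower genes. Kmt2c ranged from -0.032 to 0.168. After scaling these fits gave 130 to 392 higher and 65 to 624 lower genes and 0 to 2 lower list genes, with Kmt2b from -0.10 to 0.14, Kmt2d from -0.007 to 0.23 and Men1 from -0.134 to 0.083. The log2 difference of the ratio of Kdm1a to Kdm5b ranged from -0.10 to 0.11. Alternatives chosen after seeing the data were size factors from the tested genes, with which scaled Kmt2b was at 0.069, Men1 at 0.04 and 1 list gene was called lower, scaled voom, with Kmt2b at 0.002, the scaled fit with sex, with 1 lower list gene, and the scaled fit with a pseudocount of 0.1 FPKM, with 2. No member was called in any scaled fit. Menin, with 164 to 238 fragments per library, had the largest counting error.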
